A study of Mus musculus with 6 samples.

Results

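The genes described here encode 10 peptides of the gut endocrine system outside the cholecystokinin and glucagon-secretin families: Pyy, Nts, Sst, Ghrl, Tac1, Iapp, Insl5, Gal, Npy and Ppy. They were taken by name, as every probe set annotated to 1 of these symbols alone, which gave 14 probe sets among 34945 with a single symbol. Where a gene had several, the one brightest on average across the 6 arrays stands for it, so the 10 genes stand among 18193 measured. The data are 6 Affymetrix mouse arrays of intestinal cells from adult CCK-EGFP transgenic mice of the Swiss Webster (SW) strain, in which enhanced green fluorescent protein (EGFP) marks cells that express Cck. Intestinal tissue was dissociated with enzymes and sorted by fluorescence. One group holds 3 samples of EGFP-positive cells (CCK-EGFP) and the other 3 samples of cells without EGFP (non-EGFP), in equal cell number, and both carry the transgene. The labels do not say which gut segment was taken, whether animals were pooled or whether replicates are different animals, and the p-values reflect only the variation among these arrays, possibly technical. EGFP follows the transgene, so a CCK-EGFP sample can hold any cell type in which it is active, and each sample is a pool. Markers of enterocytes, goblet cells and lymphocytes also had signal in the CCK-EGFP samples, as given below, and carry-over of other cells was not tested.

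Gut hormones are made by scattered enteroendocrine cells of the epithelium, which store peptides in granules and release them after a meal or a fast. The classical scheme gave each hormone a cell of its own: I cells for cholecystokinin, L cells for peptide YY, N cells for neurotensin, D cells for somatostatin and X cells for ghrelin. Later work found that one cell can make several of these peptides and that the mix changes along the gut. Galanin, neuropeptide Y and tachykinins are also made by enteric neurons, pancreatic polypeptide and amylin by pancreatic islets, and insulin-like peptide 5 mainly by colonic L cells.

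Transcripts for the ghrelin, neurotensin, PYY, tachykinin, amylin and somatostatin precursors were higher in CCK-EGFP cells, by 5.26-fold to 46.0-fold. The 10 genes divided into 6 that were higher, 0 that were lower and 4 that did not pass (limma, Benjamini-Hochberg adjusted over all 18193 genes, threshold 0.05). Across all genes 14.0% were higher and 10.2% lower under the same rule, the shares to read beside each list count below. In counts that was 2540 higher and 1851 lower, and 2101 higher and 3605 lower after median centring of the arrays, under which the same 6 members were higher and Gal lower. In bulk samples, more cells of a type and more RNA per cell cannot be told apart. At an unadjusted p under 0.05 the count of lower members was 1, galanin. Unadjusted counts here and below stand without a share over all genes. With the replicate number as a block, 12.9% of all genes and the same 6 members were higher. The median log2 difference was 2.70 over the 10 genes and -0.17 over all genes. Values are log2 RMA intensities, in which 1 unit is a doubling. A background level of 4.60, the 95th percentile of the means of 71 olfactory and vomeronasal receptor genes, serves as a guide to what is not detected. Of the 10 genes 7 lay above it on all 6 arrays, the 6 higher genes and Ppy.

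**Figure D1:**
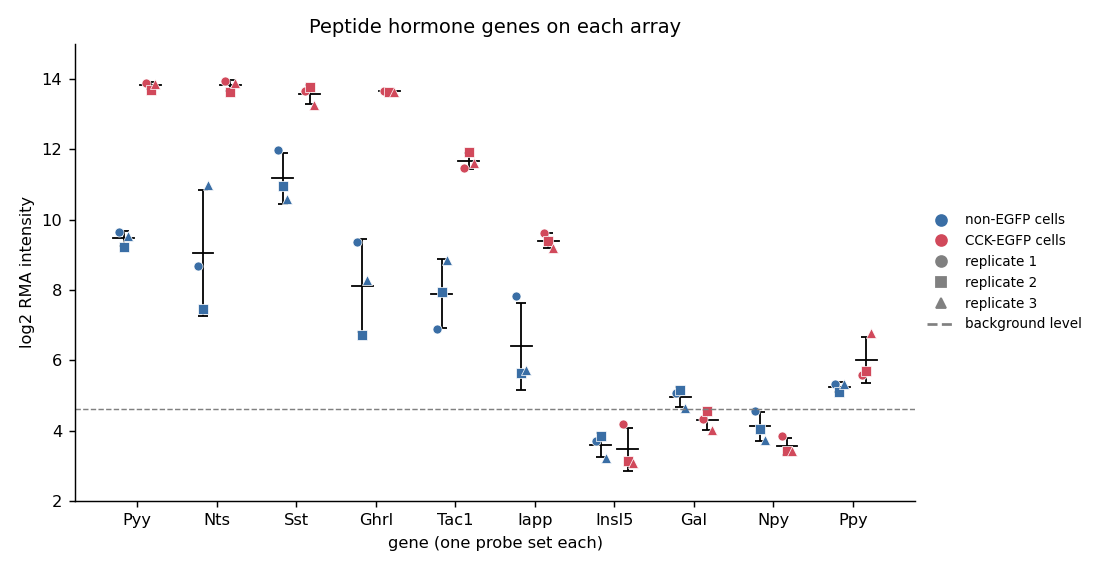
Log2 RMA intensity of each gene (vertical axis) on the 3 non-EGFP arrays (blue) and the 3 CCK-EGFP arrays (red), with the mean and SD in black, marker shape giving the replicate number and the dashed line the background level of 4.60. The 6 genes on the left and Ppy have all red points above all blue points, as have 21.8% of all genes. Gal has all blue points above all red points, as have 28.1% of all genes. The 4 genes on the right lie lower, with Insl5, Gal and Npy near or under the dashed line and Ppy above it.

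The promoters of 5 of the higher genes are printed, as the 250 bases before the RefSeq start site, 5′ to 3′ on the gene's strand. These genes share a call as higher, as do 14.0% of all genes, and shared regulation was not tested. Capitals mark matches to any of TGACG and its palindrome TGACGTCA (the cAMP response element and its core), CAGATG and CAGCTG (E boxes), TAAT (a homeodomain core), CCAAT and TATAA, on either strand.
Sst promoter, GRCm38.p6, chr16:23890845-23891094, minus strand: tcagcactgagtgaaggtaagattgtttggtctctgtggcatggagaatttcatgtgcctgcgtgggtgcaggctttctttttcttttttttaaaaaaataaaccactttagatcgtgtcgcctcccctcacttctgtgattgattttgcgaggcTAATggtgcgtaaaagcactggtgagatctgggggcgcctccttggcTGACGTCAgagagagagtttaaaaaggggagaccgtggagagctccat
Tac1 promoter, GRCm38.p6, chr6:7554811-7555060, plus strand: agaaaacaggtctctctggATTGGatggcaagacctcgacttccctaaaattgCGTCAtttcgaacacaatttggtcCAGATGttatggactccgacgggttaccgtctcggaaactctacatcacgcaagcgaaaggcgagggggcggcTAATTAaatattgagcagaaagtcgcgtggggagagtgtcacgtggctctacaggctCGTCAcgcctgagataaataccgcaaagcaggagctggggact
Nts promoter, GRCm38.p6, chr10:102490419-102490668, minus strand: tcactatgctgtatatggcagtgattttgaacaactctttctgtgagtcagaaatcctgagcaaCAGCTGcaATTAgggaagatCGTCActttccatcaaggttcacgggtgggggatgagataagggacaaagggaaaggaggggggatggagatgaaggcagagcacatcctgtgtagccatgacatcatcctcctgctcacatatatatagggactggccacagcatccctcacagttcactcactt
Pyy promoter, GRCm38.p6, chr11:102107833-102108082, minus strand: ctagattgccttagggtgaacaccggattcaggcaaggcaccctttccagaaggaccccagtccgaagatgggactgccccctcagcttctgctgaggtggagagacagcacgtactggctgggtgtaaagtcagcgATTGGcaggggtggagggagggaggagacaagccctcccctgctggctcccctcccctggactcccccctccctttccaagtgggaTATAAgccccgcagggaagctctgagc
Iapp promoter, GRCm38.p6, chr6:142298175-142298424, plus strand: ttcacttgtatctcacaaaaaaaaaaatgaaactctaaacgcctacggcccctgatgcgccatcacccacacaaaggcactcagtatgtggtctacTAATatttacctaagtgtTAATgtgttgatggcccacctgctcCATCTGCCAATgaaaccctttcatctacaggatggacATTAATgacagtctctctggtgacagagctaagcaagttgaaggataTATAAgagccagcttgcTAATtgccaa

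The full cAMP response element TGACGTCA was found in Sst, where it begins 48 bases before the start site, and in none of the other 9 genes, against 1.56% of 32536 RefSeq promoters of the same length. The core TGACG, which the full element contains, was found in Sst, Tac1 and Nts, 3 of the 10 genes, against 17.9% of all promoters. In Tac1 the nearer core begins 43 bases before the start, and in Cck, the gene on which the cells were sorted, 47 bases before it. The homeodomain core TAAT was found in 4 of the 6 higher genes and 1 of the other 4, against 54.8% of all promoters, and Iapp held 5 matches. The general E box CANNTG was found in 6 of the 6 higher genes and 1 of the other 4, against 66.2% of all promoters. TATAA, added after the sequences were seen, was found in 2 of the 6 higher genes and 2 of the other 4, against 22.7% of all promoters, and begins 27 bases before the start in both Pyy and Iapp. Ghrl has 4 start sites in RefSeq and Pyy and Insl5 have 2 each, of which the outermost was searched. Ghrl held CAGCTG and CCAAT. These matches describe letters in the reference sequence, and no binding was measured.

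Pyy encodes peptide YY, which slows gut transit and reduces appetite. Its values were 13.90, 13.70 and 13.86 on the CCK-EGFP arrays, replicates 1 to 3, and 9.65, 9.23 and 9.52 on the non-EGFP arrays. The groups lay 4.05 apart at their nearest arrays, and the 3 samples of each group were close together. Pyy was 20.4-fold higher in CCK-EGFP cells (95% interval 14.8 to 28.2, log2 difference 4.35, SE 0.19, limma adjusted p = 0.000105). Its SD of 0.22 among non-EGFP samples was below the 0.35 that was the median over all genes. The difference between samples of the same number was 4.25, 4.47 and 4.34.

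Nts encodes neurotensin, a peptide released by fat in the distal small intestine. The CCK-EGFP arrays read 13.94, 13.64 and 13.89, and the non-EGFP arrays 8.70, 7.46 and 11.00. Neurotensin was uniform in CCK-EGFP cells and varied over 3.54 units in non-EGFP cells, where replicate 3 was highest. Its SD there, 1.80, exceeded that of 98.8% of genes. The transcript was 27.4-fold higher in CCK-EGFP cells, with a wide interval of 6.87 to 108.9 (adjusted p = 0.0104), and by sample number the difference was 5.25, 6.18 and 2.89. The log2 difference of 4.77 was 3.98 without non-EGFP replicate 2 and 5.75 without non-EGFP replicate 3. The 8 enteroendocrine markers measured ranged on the non-EGFP arrays over 0.09 for Chgb, 0.16 for Chga, 0.25 for Neurod1 and 0.53 for Resp18. Scg2 ranged over 1.05, Syp over 1.14, Scgn over 1.79 and Pcsk1 over 2.03. Replicate 3 was highest for Chgb, Scg2, Syp and Scgn and lowest for Chga, Resp18 and Pcsk1. Chga, Chgb and Neurod1 were named after their values were seen. The mean level of the 8 markers ranged over 0.21 there. Fabp6, a bile acid-binding protein of ileal enterocytes named after its values were seen, read 5.42, 5.60 and 7.42 on the non-EGFP arrays. On the CCK-EGFP arrays it read 4.63, 4.92 and 9.08, so it was highest on replicate 3 of both groups, whereas Nts was not highest on CCK-EGFP replicate 3. Slc10a2, another gene that marks gut regions, was also named after its values were seen. It read 4.05, 3.33 and 2.15 on the non-EGFP arrays, lowest on replicate 3 and below background throughout. The part of gut region in the neurotensin values was not tested.

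Sst encodes somatostatin, which inhibits the release of other gut hormones. It read 13.66, 13.78 and 13.27 in CCK-EGFP cells and 11.98, 10.96 and 10.59 in non-EGFP cells. Somatostatin thus had the smallest difference of the 6 higher genes while its groups stayed 1.29 apart, and non-EGFP replicate 1 was the highest of its group. The fold was 5.26 (95% interval 2.79 to 9.95, log2 difference 2.40, SE 0.38, limma adjusted p = 0.00782).

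Ghrl encodes ghrelin, a peptide that stimulates appetite and is made mainly in the stomach, with smaller amounts in the intestine. It read 13.67, 13.64 and 13.65 in CCK-EGFP cells and 9.38, 6.72 and 8.27 in non-EGFP cells. The CCK-EGFP values spanned 0.03 units and the non-EGFP values 2.65, with replicate 2 lowest. Ghrelin had the largest fold of the 10 genes, 46.0 (95% interval 16.3 to 129.8, adjusted p = 0.00228), and 0.495% of all genes had a larger difference. Its log2 difference of 5.52 was 4.82 without non-EGFP replicate 2 and 6.15 without non-EGFP replicate 1. Mboat4, the enzyme that attaches the fatty acid ghrelin needs to act on its receptor, was named after its values were seen and read 5.80, 6.58 and 6.71 in CCK-EGFP cells and 4.25, 4.14 and 4.28 in non-EGFP cells. With the non-EGFP mean raised to the background level, Mboat4 was at least 3.40-fold higher in CCK-EGFP cells. The log2 difference between the groups was 2.14 (limma adjusted p = 0.00368). Of 5 gastric epithelium markers measured, 3 had both means below background, 0 were higher and 1 was lower. The lower one, Gkn2, lay below background on all 6 arrays and lost its call in 5 of the 6 fits that left out 1 array (adjusted p up to 0.116). The list's mean level was 3.29 to 3.43 on the CCK-EGFP arrays and 4.14 to 4.89 on the non-EGFP arrays, and at most 1 of the 5 was above background on any CCK-EGFP array. The part of gastric cells in the ghrelin values was not tested.

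Tac1 encodes the precursor of substance P and neurokinin A, peptides of enterochromaffin cells and enteric neurons. Its main probe set read 11.48, 11.92 and 11.60 in CCK-EGFP cells and 6.90, 7.94 and 8.84 in non-EGFP cells, with the groups 2.64 apart. The fold was 13.7 (95% interval 6.16 to 30.4, log2 difference 3.77, adjusted p = 0.00353). Its other probe set lay below background on 5 of 6 arrays, at 2.75, 2.86 and 4.80 against 2.92, 2.22 and 2.99, and did not pass (adjusted p = 0.36 over all probe sets). With the mean of both probe sets the log2 difference of Tac1 was 2.27 (adjusted p = 0.00708).

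Iapp encodes amylin, a peptide best known from pancreatic beta cells that is also found in gut endocrine cells. Its main probe set read 9.62, 9.38 and 9.20 in CCK-EGFP cells and 7.82, 5.63 and 5.73 in non-EGFP cells, so replicate 1 was the high sample of the non-EGFP group. The fold was 8.03 (95% interval 3.02 to 21.4, log2 difference 3.01, SE 0.59, limma adjusted p = 0.0153). Without CCK-EGFP replicate 1 the adjusted p was 0.0564 and without replicate 2 it was 0.0579, while the log2 difference was 2.90 and 3.01. Without non-EGFP replicate 1 the log2 difference was 3.72. Iapp has 4 probe sets and all 4 were higher on every CCK-EGFP array than on any non-EGFP array. Probe set 1423509_a_at read 11.13, 8.40 and 8.77 against 7.52, 5.57 and 5.88, probe set 1437323_a_at read 9.90, 8.69 and 8.95 against 7.02, 5.03 and 5.68, and probe set 1456004_x_at read 8.18, 6.54 and 6.12 against 5.61, 5.63 and 5.40. Tested over all probe sets, the first 2 of these passed (log2 difference 3.11 and 3.27, limma adjusted p = 0.0443 and 0.0115) and the last did not (1.40, adjusted p = 0.105). Replicate 1 was the highest CCK-EGFP sample on each of the 4.

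**Figure D2:**
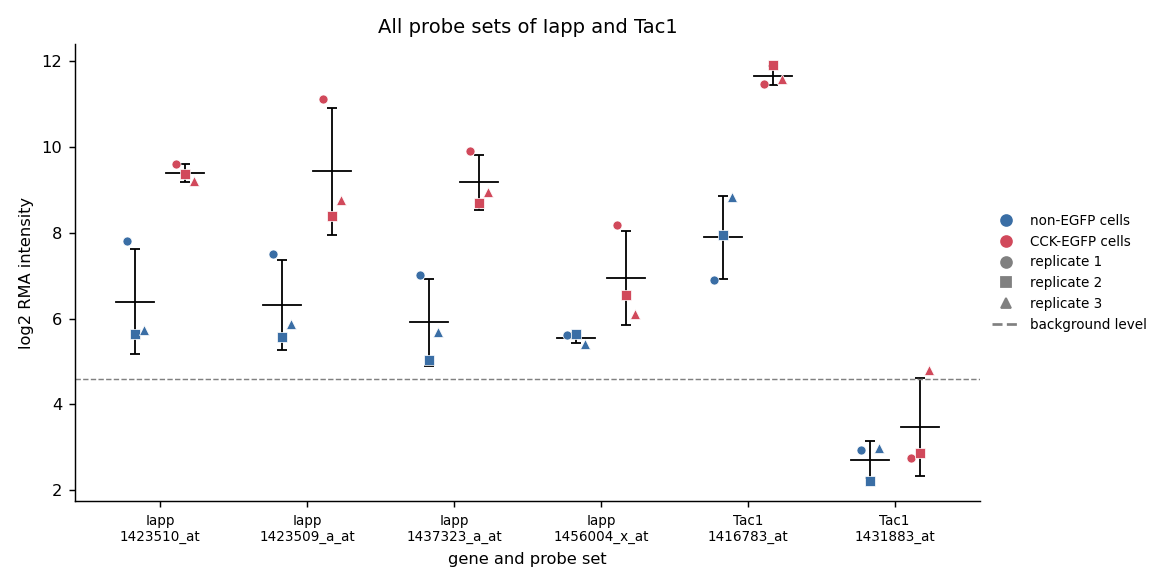
Log2 RMA intensity (vertical axis) of the 4 probe sets of Iapp and the 2 of Tac1 on each array, non-EGFP in blue and CCK-EGFP in red, with mean and SD in black and the background level of 4.60 dashed. The 4 Iapp probe sets all separate the groups, whereas Tac1 probe set 1431883_at lies near or below the dashed line in both.

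Amylin is also an islet product, and islet markers were read beside it. Ins2, an insulin gene, read 5.06, 5.04 and 5.10 in CCK-EGFP cells and 6.31, 5.56 and 5.58 in non-EGFP cells (adjusted p = 0.0727), and of the 4 islet markers measured 0 were higher and 0 lower (0 higher and 2 lower at an unadjusted p under 0.05, limma). With the replicate block 1 was lower, the glucose transporter Slc2a2 (adjusted p = 0.0457), which enterocytes also express. The part of islet cells in the amylin values was not tested.

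The other 4 genes did not pass the test, and their signals were low. Insl5, whose peptide stimulates appetite, read 4.18, 3.12 and 3.09 in CCK-EGFP cells and 3.69, 3.86 and 3.21 in non-EGFP cells. Its groups overlapped and all 6 values were below background (log2 difference -0.12, 95% interval -0.98 to 0.73, adjusted p = 0.808). Npy, a transmitter of enteric and sympathetic nerves, read 3.84, 3.41 and 3.40 against 4.57, 4.06 and 3.74, again below background throughout (log2 difference -0.57, 95% interval -1.22 to 0.08, adjusted p = 0.162). At these levels no expression of either gene was detectable in either group.

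Gal, which encodes galanin, an inhibitory peptide of enteric neurons, read 4.34, 4.57 and 4.001 in CCK-EGFP cells and 5.08, 5.15 and 4.64 in non-EGFP cells. The groups did not overlap, with the non-EGFP arrays higher and 0.07 between the nearest, a pattern that 28.1% of all genes showed in that direction. The log2 difference was -0.65 (SE 0.24, adjusted p = 0.0934). After median centring of the arrays the adjusted p was 0.0499 (log2 difference -0.91). Low signals as a class leaned the same way, since 86.6% of the 4609 genes with both means below background had a negative difference and their median was -0.37, and the part of this shift in the galanin and Npy values was not tested.

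Ppy encodes pancreatic polypeptide and lies next to Pyy on chromosome 11, with no other gene between them in the RefSeq table (GRCm38.p6). It read 5.58, 5.68 and 6.76 in CCK-EGFP cells and 5.32, 5.08 and 5.33 in non-EGFP cells, above background on all 6 arrays. The CCK-EGFP arrays were all above the non-EGFP arrays, a pattern that 21.8% of all genes showed in that direction, and replicate 3 was the high sample. The log2 difference was 0.76 (95% interval -0.06 to 1.59, adjusted p = 0.144), or 0.39 without CCK-EGFP replicate 3. Of the 3 members of the neuropeptide Y family, Pyy was therefore higher and neither Npy nor Ppy passed.

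**Figure D3:**
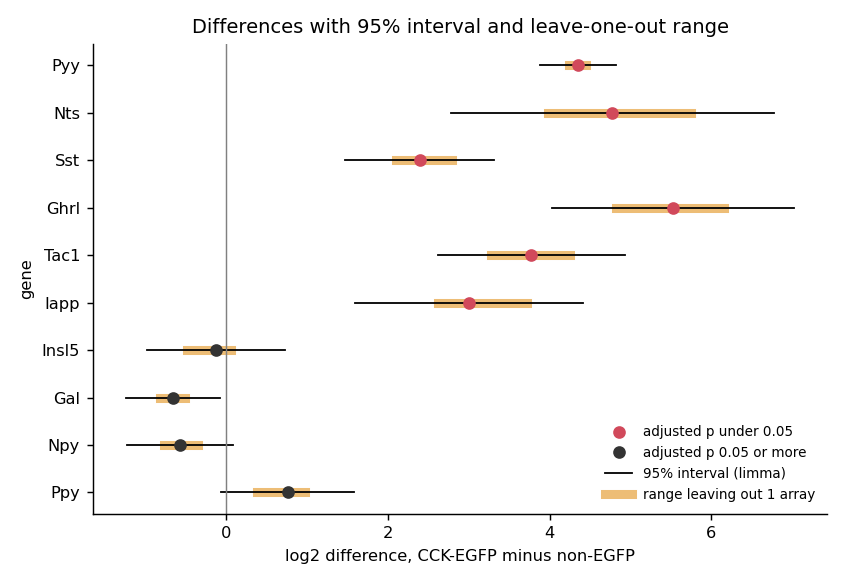
Log2 difference between CCK-EGFP and non-EGFP cells (horizontal axis) for each gene (vertical axis), with the 95% interval from limma as a black line and the range of the difference when 1 array is left out in orange. The 6 genes in red lie to the right of 0 with their whole intervals, from 2.40 for Sst to 5.52 for Ghrl, and the intervals of Insl5, Npy and Ppy span 0.

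The level of Cck itself rose 23.2-fold, at 13.52, 12.90 and 13.06 against 8.65, 8.35 and 8.89. Each member was set against it within each array, as the log2 value of the member minus that of Cck, and the change of that quantity was compared between the groups. This describes sizes of change and does not rank the genes by level. The sort itself sets Cck apart, so Insl5, Gal and Npy, near or below background in both groups, mostly return the change of Cck with its sign reversed. Sst, with a mean of 11.17 in non-EGFP cells, had limited room to rise under the CCK-EGFP array maxima of 14.71 to 14.75. Pyy changed by nearly as much as Cck (-0.18, exact permutation test, two-sided p = 0.4), and for Nts the value was 0.24 (p = 0.8, exact permutation test) with an SD of 1.53 among non-EGFP samples. Ghrl had 0.99 (exact p = 0.3) and Tac1 -0.76 (exact p = 0.3). Sst changed by less than Cck, by -2.14, in all 3 samples of the same number (-3.19, -1.73 and -1.49), and so did Iapp, by -1.53 (-3.07, -0.81 and -0.71). Both reached p = 0.1, the smallest the exact permutation test can give with 3 samples against 3, as did Insl5, Gal, Npy and Ppy, whose changes relative to Cck were -4.66, -5.19, -5.10 and -3.77. Adjusted over the 10 genes that is 0.167, so this test, which ignores the sample numbers, could not reach the threshold for any gene. On the CCK-EGFP arrays Sst lay 0.93 to 1.48, Pyy 0.81 to 1.01, Nts 0.77 to 1.07, Ghrl 1.04 to 1.10 and Cck 1.19 to 1.80 log2 units under the highest value of the array. Signals close to the maximum may be compressed, and the part of this in the sizes of the differences was not tested.

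**Figure D4:**
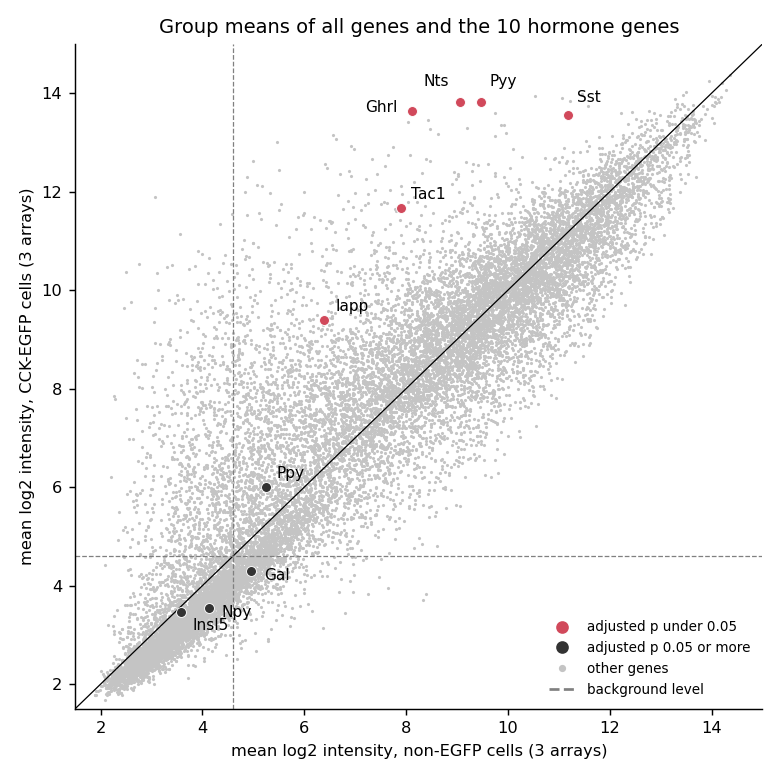
Mean log2 intensity of all 18193 genes in non-EGFP cells (horizontal axis) and CCK-EGFP cells (vertical axis), with the hormone genes as large points, equality as a solid line and the background level of 4.60 dashed. Nts, Pyy, Ghrl and Sst lie at the upper edge of the cloud, between 13.57 and 13.83 in CCK-EGFP cells, and Insl5, Npy and Gal sit below the solid line.

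In non-EGFP cells the 6 higher genes differed in which sample was high. Replicate 1 was highest for Pyy, Sst, Ghrl and Iapp, and replicate 3 for Nts and Tac1. Pyy ranged over 0.42, Sst over 1.39, Tac1 over 1.95, Iapp over 2.19, Ghrl over 2.65 and Nts over 3.54 log2 units there. In CCK-EGFP cells none of the 6 ranged over more than 0.51 by the probe set that stands for the gene, while the other Iapp probe sets varied more. Gcg, the precursor of glucagon-like peptides, read 4.70, 6.74 and 8.66 on the non-EGFP arrays, and the lymphocyte markers had mean levels of 10.34, 10.83 and 11.65. Replicate 3 was thus the high sample for both, as for Nts and Tac1, and for Gip (10.39, 10.71 and 12.07). It was the low sample for Tph1 (10.08, 9.81 and 9.72) and for Sct (11.39, 11.34 and 10.92), the latter named after its values were seen. On the CCK-EGFP arrays the 6 T and NK lymphocyte markers had mean levels of 9.72, 10.59 and 11.77, also highest on replicate 3. The 7 goblet markers had mean levels of 12.27 to 12.61 there and 12.72 to 12.94 on the non-EGFP arrays. The part of other cell types in the spread of the hormone genes was not tested.

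The receptors of these peptides fell into a small group with large differences and a larger group near background. Of 23 measured genes for receptors and their partner proteins, 8 were higher, 0 lower and 15 did not pass (3 lower at an unadjusted p under 0.05, limma), with a median of -0.07 and 12 with both means below background. With the replicate block 9 were higher, the added one being the receptor partner Ramp3 (adjusted p = 0.0188 against 0.101 without the block), which read 4.51, 4.89 and 5.77 against 2.93, 3.56 and 4.64 and was named after its values were seen. Galr1, the inhibitory galanin receptor, read 10.77, 10.68 and 10.11 in CCK-EGFP cells and 2.85, 4.08 and 3.30 in non-EGFP cells, at least 60.6-fold higher against the background level (limma adjusted p = 0.000153). Its ligand gene Gal was thus near background where the receptor was high. Npy1r, a receptor of neuropeptide Y and PYY, read 7.51, 8.003 and 5.44 against 2.81, 2.33 and 2.54, at least 5.22-fold higher.

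Somatostatin receptors made up most of the rest. Sstr5 read 10.25, 10.84 and 9.90 against 4.90, 5.38 and 5.71, a 32.0-fold difference (adjusted p = 0.000349). Sstr3 read 9.18, 9.36 and 8.01 against 3.95, 4.47 and 4.20, at least 19.0-fold higher. Other probe sets of Galr1, Npy1r and Sstr3 gave differences as low as -0.67, -0.05 and -0.25. Sstr1, Sstr2, the receptor partner Ramp2 and the neurotensin-binding sortilin Sort1, named after their values were seen, completed the 8. Sstr1 was at least 2.77-fold and Ramp2 at least 7.27-fold higher. Sstr2 read 9.14, 8.73 and 7.76 against 7.10, 2.86 and 3.76, and lost its call in 5 of the 6 fits that left out 1 array (adjusted p up to 0.121, all but that without non-EGFP replicate 1). Sort1 rose 2.23-fold and lost its call without any 1 CCK-EGFP array (up to 0.105). The ghrelin receptor Ghsr, the neurotensin receptor Ntsr1 and the amylin receptor core Calcr, also named after their values were seen, were below background on every array. Ramp1 (6.30 ± 0.28 and 7.10 ± 0.26, SD, n = 3 arrays, limma adjusted p = 0.0533) and Ntsr2 (5.99 ± 0.90 and 5.06 ± 0.24, adjusted p = 0.165) did not pass.

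**Figure D5:**
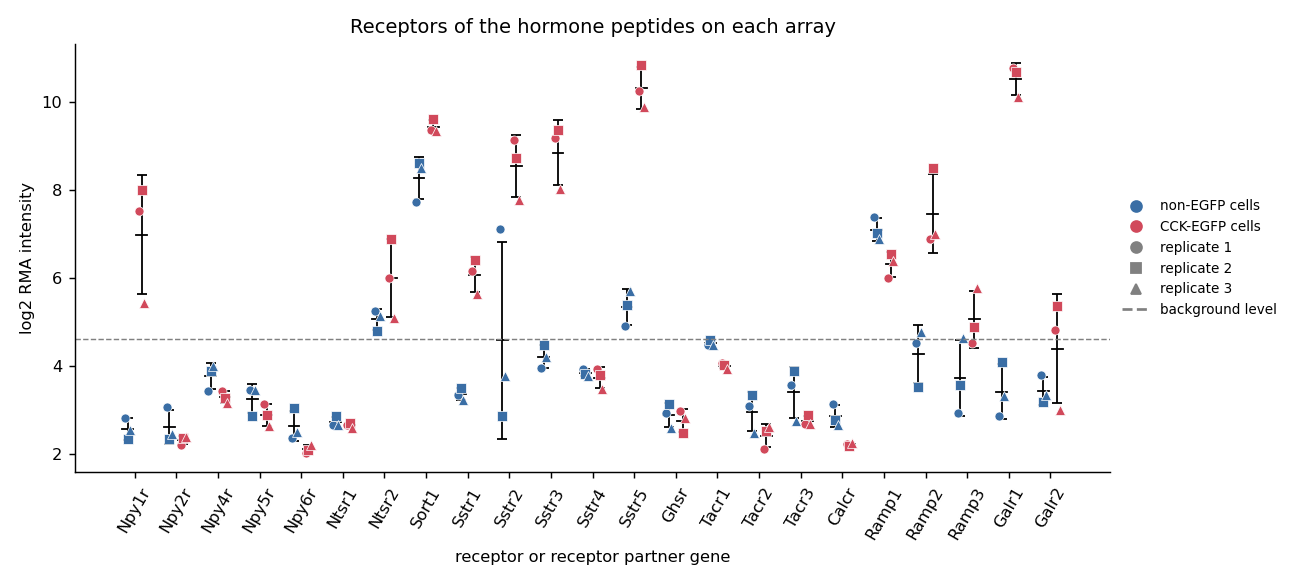
Log2 RMA intensity (vertical axis) of 23 genes for receptors of these peptides and their partners on each array, non-EGFP in blue and CCK-EGFP in red, with mean and SD in black and the background level of 4.60 dashed. Galr1, Sstr3 and Sstr5 separate the groups by more than 3 units, and 12 genes have both means under the dashed line.

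Of 17 measured genes for processing and inactivation of peptides, 8 were higher, 2 lower and 7 did not pass, with a median of 0.55. Leaving out 1 array gave 8 higher in each fit and 0 to 3 lower, with 3 lower without CCK-EGFP replicate 3. With the replicate block 3 were lower, the added one being the aminopeptidase Enpep, named after its values were seen (adjusted p = 0.0289 against 0.0593 without the block). Qpct, which forms the pyroglutamate end of neurotensin, read 10.28, 10.59 and 9.94 against 4.27, 3.75 and 5.82 (log2 difference 5.66, adjusted p = 0.00118), and on the non-EGFP arrays only replicate 3 was above the background level. The prohormone convertase Pcsk1 rose 20.2-fold, the convertase inhibitor Pcsk1n 46.7-fold and the chaperone Scg5 35.8-fold (adjusted p at most 0.00464). Pam, which amidates the ends of PYY, amylin and substance P and was named after its values were seen, read 12.06, 11.96 and 11.59 against 9.88, 9.94 and 9.22. Mme, or neprilysin, which cleaves substance P, fell by 2.42 and Ace fell by 2.24 on the log2 scale (adjusted p = 0.0253 and 0.0248). Mme lost its call in 5 of the 6 fits that left out 1 array and Ace in 4, with adjusted p up to 0.0864 and 0.0866. Dpp4, which trims PYY, read 12.15, 12.51 and 12.88 against 12.71, 13.06 and 13.13 (adjusted p = 0.22), and Furin also did not pass (adjusted p = 0.402). CCK-EGFP replicate 3 was the highest of its group for Mme, Ace and Dpp4, and it also had the highest mean of the 11 enterocyte markers, 13.19 against 12.35 and 12.50. On the non-EGFP arrays that mean was 13.52 to 13.59. Of the 11 markers 0 were higher and 3 lower (0 higher and 7 lower at an unadjusted p under 0.05, limma), with a median of -0.82, and leaving out 1 array gave 0 to 5 lower. The part of enterocytes in the Mme and Ace values was not tested.

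Among 25 other peptide genes, 5 rose, 1 fell and 19 did not pass (7 lower at an unadjusted p under 0.05, limma), with a median of -0.16. Over all genes 14.0% were higher and 10.2% lower, and the median was -0.17. Leaving out 1 array gave 3 to 5 higher and 1 to 3 lower, with 3 lower without CCK-EGFP replicate 3. Ucn3, a stress-related peptide also made in islets, read 10.04, 10.38 and 9.75 against 4.27, 4.63 and 5.66, 36.9-fold higher (adjusted p = 0.000522). Cartpt, a neuropeptide of feeding circuits and enteric nerves, read 12.38, 12.64 and 10.91 against 8.90, 7.21 and 4.88 (log2 difference 4.98, adjusted p = 0.0174), and no longer passed when CCK-EGFP replicate 1 or 2 was left out (adjusted p up to 0.0694). Nmu was at least 6.67-fold and Nucb2 4.89-fold higher, and Pomc, named after its values were seen, was 4.56-fold higher, a call lost without CCK-EGFP replicate 1 (adjusted p = 0.0506). The lower gene was Edn1, which encodes the vessel-constricting peptide endothelin, at 6.31 ± 0.68 against 8.76 ± 0.34 (SD, n = 3 arrays, limma adjusted p = 0.00698). Guanylin (Guca2a) and uroguanylin (Guca2b), peptides of the surface epithelium, did not pass (adjusted p = 0.134 and 0.0574). Named after their values were seen, somatostatin's relative Cort stood at 4.43 ± 0.12 and 4.67 ± 0.22 and the neuronal peptide Vip was below background on every array.

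Neuronal markers bear on Tac1, Gal and Npy. Of 7 enteric neuron markers measured, 2 were higher, Ret and Elavl3, and 0 lower (3 lower at an unadjusted p under 0.05, limma). Ret read 11.34, 10.75 and 10.08 against 3.86, 5.45 and 4.01, and Elavl3 read 8.97, 8.80 and 7.96 against 3.88, 4.46 and 3.75. Other probe sets of Ret and Elavl3 gave differences as low as 3.55 and -0.61. The intermediate filament Prph and the transcription factor Hand2 did not pass (adjusted p = 0.965 and 0.0807), and neither did Chat, Nos1 and Elavl4, named after their values were seen. The list's mean level was 5.64 to 6.14 on the CCK-EGFP arrays and 4.25 to 4.97 on the non-EGFP arrays, and its median log2 difference was -0.02. Of the 7 markers, 3 to 4 were above background on a CCK-EGFP array and 2 to 5 on a non-EGFP array. The part of neurons in the hormone values was not tested.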

How the data were processed

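Total RNA of 6 sorted samples was amplified with a WT-Ovation Pico kit and hybridised, per the labels' protocols. The authors deposited values for 45101 probe sets in 1 table. These are log2 intensities, a scale taken from their range, and come from RMA per the submitters' processing notes. RMA corrects background, equalises array distributions and summarises probes, so broad shifts can be reduced. Gene symbols came from the platform's annotation. The 64 controls, 932 probe sets with several symbols and 9160 unlisted ones were left out. RMA gives no detection call. The number of arrays limits the precision.

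The test was limma's, version 3.58.1 under R 4.3.3 (lmFit, eBayes, two-sided, Benjamini-Hochberg over 18193 genes, threshold 0.05). A fold with 1 group mean below the background level was computed against that level and is a lower bound. The fit was tested on simulated data. Exact permutation tests and motif searches used Python 3.11.15. Protein sequences were not used here.

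The members and lists were chosen with earlier results of these data known. Named were the 10 genes, Cck, and from each list up to 4 genes past the threshold in each direction and up to 2 others by mean level. Further genes are marked in the text as named after their values were seen. Of the listed genes, 3 receptor, 1 processing, 7 other peptide and 4 transcription factor genes, among others, are not analysed here. Samples share numbers 1 to 3 across groups. Deviations from group means correlated across genes at 0.27, 0.16 and 0.22 between same-numbered arrays, each above 0.1, so the numbers may be read as pairs. Between others the values were -0.25 to -0.01. Centring each group on its own mean pushes these down when the first are positive, so they add no separate evidence of pairing. The reported folds, intervals and p-values come from fits without the block, and the block is an alternative. Alternatives were the replicate block, 2 filters on dim genes, array weights, trended and robust eBayes, median centring, quantile normalization once more, averaging a gene's probe sets, each probe set alone, treat against 0.5, means raised to the background level, leaving out each array and, added after seeing the data, leaving out replicate 3 of both groups.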

Additional observations from a re-analysis of the deposited data

How the results depend on the processing

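The differences of Pyy, Nts, Sst, Ghrl, Tac1 and Iapp kept their direction under every alternative run, and the first 5 also kept their call, apart from the fits of single probe sets, where the dimmer one of Tac1 and one of Iapp did not pass. Leaving out 1 array, the log2 difference ranged from 3.98 to 5.75 for Nts, 4.82 to 6.15 for Ghrl and 2.62 to 3.72 for Iapp, with 5 or 6 of the 10 genes called higher, and from -0.48 to 0.066 for Insl5. Iapp no longer passed when CCK-EGFP replicate 1 (adjusted p = 0.0564), CCK-EGFP replicate 2 (0.0579) or replicate 3 of both groups was left out (2.77 in the last, adjusted p = 0.0767). Insl5, below background throughout, turned to 0.040 after a second quantile normalization. Median centring gave Gal a call at -0.91, so 1 of the 10 genes was lower, and with means raised to the background level Gal stood at -0.36. With the replicate number as a block the 6 higher genes kept their calls (adjusted p from 0.00243 to 0.0186), no member changed its call, and across all genes 2340 were higher. For all genes, 2540 higher and 1851 lower became 1487 and 487 in treat against 0.5, 3605 were lower after median centring against 2101 higher, and leaving out 1 array gave 1365 to 2486 higher and 505 to 1962 lower. The block moved the counts of lower enterocyte (3 to 1), Paneth (0 to 2) and islet (0 to 1) markers, of lower processing genes (2 to 3) and of higher receptors (8 to 9), and no other list count. Signals near the array maxima and near background limit what these arrays can resolve, and 3 samples a group limit the rest.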

Other observations

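By the likeness of their values over the 6 arrays, a description without a test in arrays that share their groups, the genes nearest to a member differed between members. Rbp4 and Steap1 were nearest to Pyy (Pearson r = 0.9996 and 0.9994 over 6 arrays), Tmeff1 and Champ1 to Nts (0.9987 and 0.9977), Mex3a and Zfp568 to Sst (0.9983 and 0.9983), Tsr2 and Peg3 to Ghrl (0.9978 and 0.9974), Rnf130 and Trp53i11 to Tac1 (0.9994 and 0.9989), and Gm2102 and Fance to Iapp (0.9972 and 0.9958). Other probe sets of Champ1, Peg3, Rnf130 and Gm2102 gave differences as low as -0.43, -0.04, -0.29 and -0.24. The rest of these genes had only positive differences. With 2 groups so far apart, high values of r are common. Of 12967 genes searched, 980 had r above 0.95 with Pyy and 229 with Iapp. Rbp4, which encodes a retinol carrier, had a log2 difference of 6.58 (limma adjusted p = 0.000104).

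Of 12 genes measured that mark gut regions, 0 were higher and 1 was lower in CCK-EGFP cells (0 higher and 4 lower at an unadjusted p under 0.05, limma), with a median of -0.80. Leaving out 1 array gave 1 to 3 lower. The lower gene was the sugar-phosphate exchanger Slc37a2 (-3.24). Of the genes best known from the colon, all named after their values were seen, Car1 was below background on every array, whereas Hoxb13 (5.56, 5.30 and 4.93) and Aqp8 (6.59, 4.94 and 5.23) were above it on the 3 non-EGFP arrays and Car4 was above it on all 6. Gata4, a factor of the proximal small intestine also named after its values were seen, read 9.78, 9.63 and 9.95 against 10.11, 10.21 and 10.18.

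Among 12 measured transcription factors of hormone cells, 9 passed as higher and 0 as lower, and the median was 3.47 on the log2 scale (0 lower at an unadjusted p under 0.05, limma). Leaving out 1 array gave 6 to 8 higher. Isl1 (6.15), Pax6 (5.98), Nkx2-2 (5.83) and Prox1 (5.24) had the largest differences. Other probe sets of Pax6 and Prox1 gave differences as low as -0.25 and 2.62. Hhex, a factor of somatostatin cells named after its values were seen, read 7.13, 8.14 and 7.37 against 5.21, 6.40 and 6.25 (log2 difference 1.59, adjusted p = 0.0359), a call that ended whichever array was left out (adjusted p up to 0.113). Pdx1 and Pax4 did not pass (adjusted p = 0.491 and 0.0589).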
